A study of Mus musculus with 8 samples.

Results

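The 7 genes described here, Gabra2, Gabra3, Gabra4, Gabra5, Gabrb1, Gabrb2 and Gabrg1, encode subunits of the GABA-A receptor. They were taken by gene symbol from the 54532 genes of the deposited count table, and all 7 passed the filter on low counts that kept 17195 genes for testing. RNA was sequenced from the cortex of 8-mo-old C57BL/6 mice, with 1 library per mouse. The 4 control mice, m677, m668, m665 and m659, were PS19 mice, which express human 1N4R tau with the P301S mutation from the mouse prion promoter. The other 4, m671, m661, m660 and m658, were Adrb1+/m;PS19 mice, which carried, beside that transgene, a single Adrb1-A187V knock-in allele with the other Adrb1 allele intact, a mutation of the β1-adrenergic receptor made with CRISPR/Cas9. All 8 mice therefore carried the tau transgene, and no mouse without it was compared. The study's methods describe an LD 12:12 cycle, males unless otherwise noted and littermate controls, although the labels give neither sex nor litter. The comparison asks whether the receptor mutation goes with other levels of these genes in the tau transgenic cortex.

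GABA-A receptors are ligand-gated chloride channels that open when GABA, the main inhibitory transmitter of the cortex, binds to them. Each receptor is a ring of subunits, most often built from alpha, beta and gamma members, and the GABA site lies between alpha and beta subunits. The alpha subunit sets much of where a receptor sits, at synapses or outside them, and how it responds to drugs such as benzodiazepines, whose site lies between alpha and gamma. The subunit genes stand in clusters on several chromosomes.

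Of the 7 genes, 4 lie in a single cluster on mouse chromosome 5 (GRCm38). In the order of the chromosome these are Gabrg1 (ENSMUSG00000001260, chr5:70751047-70842617, minus strand), Gabra2 (ENSMUSG00000000560, chr5:70957597-71095849, minus strand), Gabra4 (ENSMUSG00000029211, chr5:71569749-71658308, minus strand) and Gabrb1 (ENSMUSG00000029212, chr5:71658113-72149037, plus strand). The cluster spans 1397991 bases and holds 5 protein-coding genes, the fifth being Cox7b2. Gabra5 (ENSMUSG00000055078) lies at chr7:57407672-57510059 on the minus strand, Gabrb2 (ENSMUSG00000007653) at chr11:42419757-42629028 on the plus strand, and Gabra3 (ENSMUSG00000031343) at chrX:72432681-72656848 on the minus strand. Gabra4 and Gabrb1 lie on opposite strands and overlap at their starts. Their annotated spans share 196 bases, of which 46 are exonic in both. How strand and multiply mapped reads were counted is not given in the sources used here, so reads from those shared bases cannot be told apart.

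The promoters of the 4 genes on chromosome 5 are shown because these neighbours differed in base composition and because Gabrg1 was the member with the largest difference between the genotypes. Each sequence runs 5′ to 3′ on the gene's own strand, from 250 bases before the RefSeq start to 50 bases after it, in GRCm38.p6. Capitals mark the GC box GGGCGG, or its reverse complement, which is the letters bound by Sp1 family factors. The windows are chr5:70842568-70842867 for Gabrg1, chr5:71095800-71096099 for Gabra2, chr5:71658259-71658558 for Gabra4 and chr5:71657671-71657970 for the upstream start of Gabrb1.
Gabrg1: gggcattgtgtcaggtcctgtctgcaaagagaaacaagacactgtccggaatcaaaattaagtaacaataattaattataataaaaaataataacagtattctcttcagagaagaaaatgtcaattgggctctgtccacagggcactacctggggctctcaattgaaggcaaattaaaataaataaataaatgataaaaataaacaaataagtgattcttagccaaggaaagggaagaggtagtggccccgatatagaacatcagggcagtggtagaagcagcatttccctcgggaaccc
Gabra2: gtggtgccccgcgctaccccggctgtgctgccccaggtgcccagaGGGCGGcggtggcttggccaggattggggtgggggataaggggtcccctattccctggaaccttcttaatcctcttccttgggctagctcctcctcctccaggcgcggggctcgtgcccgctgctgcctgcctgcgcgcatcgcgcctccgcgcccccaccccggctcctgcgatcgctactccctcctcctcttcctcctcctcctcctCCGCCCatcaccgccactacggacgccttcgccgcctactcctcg
Gabra4: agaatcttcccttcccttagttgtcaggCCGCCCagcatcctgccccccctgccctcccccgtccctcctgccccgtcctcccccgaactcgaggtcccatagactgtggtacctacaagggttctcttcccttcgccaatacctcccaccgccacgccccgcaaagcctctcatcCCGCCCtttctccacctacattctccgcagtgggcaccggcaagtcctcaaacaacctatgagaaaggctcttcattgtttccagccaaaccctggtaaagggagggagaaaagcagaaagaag
Gabrb1: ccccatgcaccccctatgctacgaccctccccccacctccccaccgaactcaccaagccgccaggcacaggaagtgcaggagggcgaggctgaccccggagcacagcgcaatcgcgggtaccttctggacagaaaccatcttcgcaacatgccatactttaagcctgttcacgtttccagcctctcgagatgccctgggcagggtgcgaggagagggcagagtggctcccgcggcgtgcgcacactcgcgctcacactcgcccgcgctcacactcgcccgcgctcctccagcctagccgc

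The Gabrg1 window had 38.3% GC and 3 CpG dinucleotides, where the median of 32851 mouse promoter windows of the same length was 52.7% GC and 7 CpG. Only 7.45% of those windows had a lower GC share than that of Gabrg1. The Gabra2 window, from the neighbouring gene, had 70% GC and 25 CpG, and 90.4% of the windows had less GC. The Gabra4 and Gabrb1 windows shown had 58.7% and 66.0% GC with 12 and 25 CpG. The other window of Gabrb1, not shown, had 50.3% GC and 9 CpG. Off chromosome 5, the Gabra3 windows had 43.0% and 39.3% GC with 0 CpG each, and the Gabra5 window had 56.7%. The Gabrb2 windows had 59.0%, 54.7% and 41.0% GC. The 2 RefSeq starts of Gabra4 and Gabrb1 lay 387 bases apart, and the stretch between them is downstream of both starts. The 2 windows lie at its opposite ends, each mostly outside it. The GC box was found on either strand in 3 of the 11 promoter windows of the 7 genes, those of Gabra2 and Gabra4 with 2 matches each and 1 window of Gabrb2, against 35.7% of all windows. Because the β1-adrenergic receptor acts through cAMP, the cAMP response element was also searched on both strands. Its full letters TGACGTCA were in 0 of the 11 windows and in 1.79% of all windows. Its core TGACG, which is contained in the full element, was in 1 of the 11, a window of Gabrb2, and in 20.8% of all windows. These matches describe the letters of the windows and nothing about binding.

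The libraries held 14653222 to 21223754 counts in PS19 mice and 16865651 to 20802158 in Adrb1+/m;PS19 mice, and the members' lowest count in any mouse was 377, for Gabrg1 in m668. The tissue was checked with marker genes, and the cortical excitatory neuron markers summed to 4105 to 4534 CPM (normalized counts scaled to the library size) in PS19 mice and 3807 to 4313 CPM in Adrb1+/m;PS19 mice. Markers of neighbouring regions were present too, at 977 to 1950 CPM and 1021 to 2186 CPM for the striatal list. Those of basal forebrain cholinergic neurons summed to 33.6 to 55.4 CPM and 54.1 to 82.8 CPM. The thalamic list summed to 107 to 144 CPM in PS19 mice and 111 to 147 CPM in Adrb1+/m;PS19 mice. The hippocampal list was low, at 33.5 to 47.5 CPM and 35.1 to 43.7 CPM. In bulk tissue such as this, fewer cells of a type and less RNA per cell cannot be told apart.

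Levels of different genes were compared as CPM per kilobase of the gene length that the deposited table gives. On that scale Gabra3 was highest at 37.4 ± 2.05 (SD, n = 8 mice), followed by Gabrb2 at 30.6 ± 1.84, Gabra4 at 20.3 ± 1.62, Gabra5 at 17.7 ± 1.09, Gabrb1 at 12.6 ± 0.601, Gabra2 at 8.44 ± 0.937 and Gabrg1 at 4.18 ± 0.661. Gabra3 encodes the α3 subunit, which is used in many cortical neurons and is the main alpha subunit of the thalamic reticular nucleus. Neighbours in this order kept their places in 8 of 8 mice and had ranges that did not overlap, except Gabra4 and Gabra5, which were in that order in 7 of 8 mice and whose ranges overlapped. The exception was m677, where Gabra5 was above Gabra4.

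As shares of the summed level of the 7 genes, Gabra3 held 28.5% ± 1.02, Gabrb2 23.3% ± 0.949 and Gabrg1 3.18% ± 0.487 (SD, n = 8). Gabrg1 was 2.87% ± 0.376 in PS19 mice and 3.49% ± 0.392 in Adrb1+/m;PS19 mice (SD, n = 4), a difference that was not tested on this scale. Among the 4 alpha genes, Gabra3 held 44.6%, Gabra4 24.2%, Gabra5 21.1% and Gabra2 10.1% of the summed level. Of the 2 beta genes, Gabrb2 held 70.9% ± 1.53, from 69.2% to 73.9% over the 8 mice. The shares and the order at the top depended on the length used. With the length of the longest coding transcript, Gabrb2 held 79.4% ± 1.20 of the 2 beta genes and Gabra3 39.7% of the 4 alpha genes. Of all 7 genes, Gabrb2 then held 28.8%, Gabra3 23.7% and Gabrg1 4.07%. With that length Gabrb2 was above Gabra3 in 8 of 8 mice, at 48.8 ± 2.93 against 40.1 ± 2.20 CPM per kilobase, but with overlapping ranges. The ranges of Gabrb1 and Gabra2 overlapped as well.

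**Figure D1:**
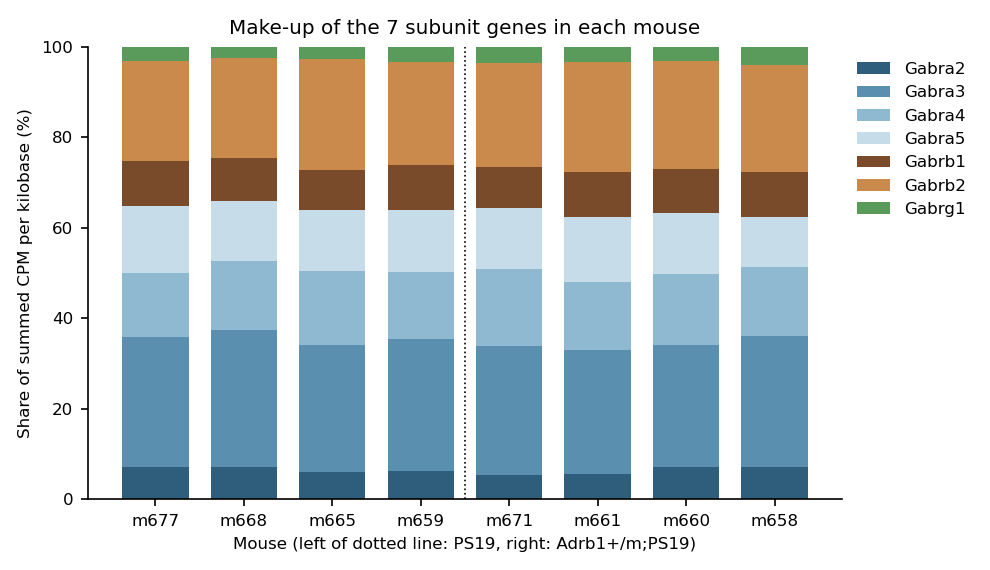
Share of each gene in the summed CPM per kilobase of the 7 subunit genes (vertical axis, percent) in each of the 8 mice, with PS19 mice left and Adrb1+/m;PS19 mice right of the dotted line. Gabra3 and Gabrb2 fill the largest parts of every bar, and Gabrg1 the smallest, from 2.44% in m668 to 4.04% in m658.

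Of the 7 genes, 1 passed the study's threshold between the genotypes, an unadjusted p under 0.05, and 6 did not. Over all genes tested the share past that threshold was 2.80%, or 1.42% for genes higher in Adrb1+/m;PS19 mice. The member that passed was Gabrg1, which was higher in Adrb1+/m;PS19 vs. PS19 mice by 1.23-fold (95% interval 1.07 to 1.43). No gene of the table passed after adjustment by edgeR's quasi-likelihood test, DESeq2 or limma-voom, which gave 481, 555 and 492 genes at an unadjusted p under 0.05. DESeq2 was run on all genes with at least 1 count, edgeR and limma-voom on the 17195 genes kept by the filter. The adjusted p of each member was 0.9996 by edgeR. In 0 of the 7 genes were the CPM values of the genotypes free of overlap, against 2.02% of all genes tested.

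Gabrg1 encodes the γ1 subunit, an uncommon gamma subunit of the brain that gives receptors with a weak response to classical benzodiazepines. It had 30.0, 26.0, 28.5 and 33.1 CPM in PS19 mice m677, m668, m665 and m659. The Adrb1+/m;PS19 mice m671, m661, m660 and m658 had 36.0, 34.1, 32.1 and 43.0 CPM. Thus 3 of the 4 Adrb1+/m;PS19 mice lay above the highest PS19 mouse, while m660 lay between m659 and the other PS19 mice. The means were 29.4 ± 2.97 CPM in PS19 mice and 36.3 ± 4.74 CPM in Adrb1+/m;PS19 mice (SD, n = 4), a log2 fold change of 0.30 (SE 0.10, edgeR unadjusted p = 0.00799). The value was 0.21 without m658, the mouse with the highest level, and stayed past the threshold with each mouse left out in turn.

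**Figure D2:**
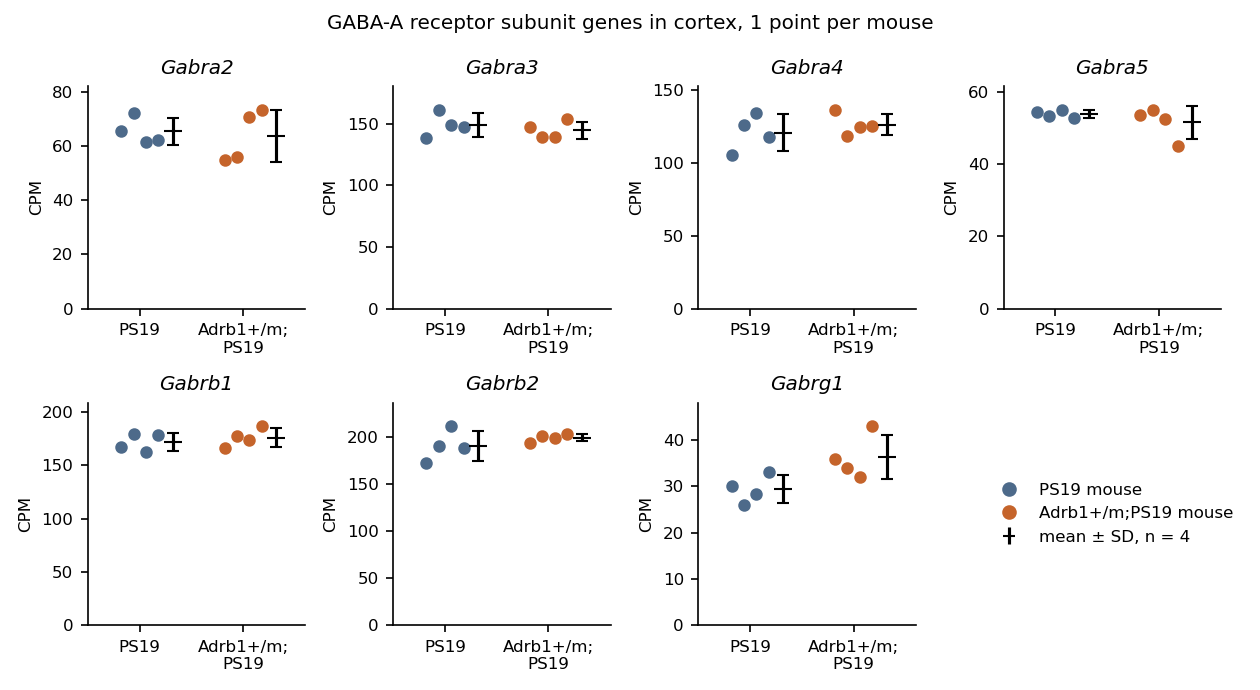
CPM of each subunit gene (vertical axes, starting at 0) in the 4 PS19 and 4 Adrb1+/m;PS19 mice, with 1 point per mouse and black bars for the mean ± SD. In Gabrg1 the means are 29.4 and 36.3 CPM, and in every panel the points of the genotypes overlap.

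Gabrg1 was set against its neighbours on chromosome 5 within each mouse, a comparison chosen after the values were seen. Its level per kilobase was 0.440 ± 0.0686 of that of Gabra2 in PS19 mice and 0.560 ± 0.0839 in Adrb1+/m;PS19 mice (SD, n = 4, 2-sided exact permutation test, p = 0.114, adjusted over 3 ratios 0.171). Against Gabrb1 the ratios were 0.301 and 0.363 (exact permutation test, p = 0.0571, adjusted 0.171), and against Gabra4 they were 0.191 and 0.223 (exact permutation test, p = 0.229, adjusted 0.229). The smallest p that 4 mice against 4 allow is 0.0286. All 3 mean ratios were higher in Adrb1+/m;PS19 mice, and none of the differences passed the test.

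The alpha genes gave no call. Gabra2, whose α2 subunit is found at synapses on the axon initial segment and is a target of the calming action of benzodiazepines, had 65.6, 72.3, 61.4 and 62.3 CPM in the PS19 mice. It had 54.8, 55.8, 70.6 and 73.3 CPM in the Adrb1+/m;PS19 mice. The Adrb1+/m;PS19 mice fell into a low pair, m671 and m661, and a high pair, m660 and m658, on either side of most PS19 mice. The group means were 65.4 ± 4.93 and 63.6 ± 9.66 CPM (SD, n = 4), a log2 fold change of -0.04 (95% interval -0.24 to 0.16, unadjusted p = 0.692 by edgeR). The sign turned positive when m668, m671 or m661 was left out.

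Gabra3 had 138, 161, 149 and 147 CPM in PS19 mice and 147, 139, 139 and 153 CPM in Adrb1+/m;PS19 mice. The highest and the lowest mouse were both PS19 mice. Its log2 fold change was -0.04 (95% interval -0.17 to 0.08, unadjusted p = 0.487 by edgeR). Gabra4 encodes α4, a subunit mostly of receptors outside synapses, which carry a steady inhibitory current. It had 105, 126, 134 and 117 CPM in PS19 mice and 136, 119, 125 and 125 CPM in Adrb1+/m;PS19 mice. PS19 mouse m677 was lowest and the other values were interleaved, with a log2 fold change of 0.06 (95% interval -0.09 to 0.22, edgeR unadjusted p = 0.398).

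Gabra5 encodes α5, also used outside synapses and best known from the hippocampus. It had 54.4, 53.3, 54.8 and 52.6 CPM in PS19 mice, a narrow range. The Adrb1+/m;PS19 mice had 53.4, 54.9, 52.5 and 44.9 CPM, so that m658 alone lay apart from the other 7 mice. The log2 fold change was -0.06 (95% interval -0.21 to 0.08, edgeR unadjusted p = 0.351) with all mice and -0.01 without m658. The gene shares 148 exonic bases with Gm9962, an antisense gene with 27 to 60 counts in a mouse.

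The beta genes gave no call either. Gabrb2 encodes β2, a common beta subunit of adult cortical receptors, and had 172, 190.2, 211 and 188 CPM in PS19 mice. It had 194, 201, 199 and 203 CPM in Adrb1+/m;PS19 mice, all within the range of the PS19 mice. The spread was wider in PS19 mice (SD 16.0 CPM) than in Adrb1+/m;PS19 mice (SD 3.81 CPM, n = 4 each), which was not tested. Its log2 fold change was 0.06 (95% interval -0.06 to 0.19, edgeR unadjusted p = 0.307). With each mouse left out in turn it ran from 0.02 without PS19 mouse m677 (unadjusted p = 0.742 by edgeR) to 0.12 without PS19 mouse m665 (unadjusted p = 0.0513 by edgeR). Gabrb1 encodes β1 and had 167, 179.5, 162 and 179 CPM in PS19 mice and 166, 178, 174 and 187 CPM in Adrb1+/m;PS19 mice. The groups covered much the same range, with a log2 fold change of 0.03 (95% interval -0.08 to 0.15, edgeR unadjusted p = 0.538). For the 6 genes that did not pass, the intervals reached no further than -0.24 and 0.22 on the log2 scale.

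**Figure D3:**
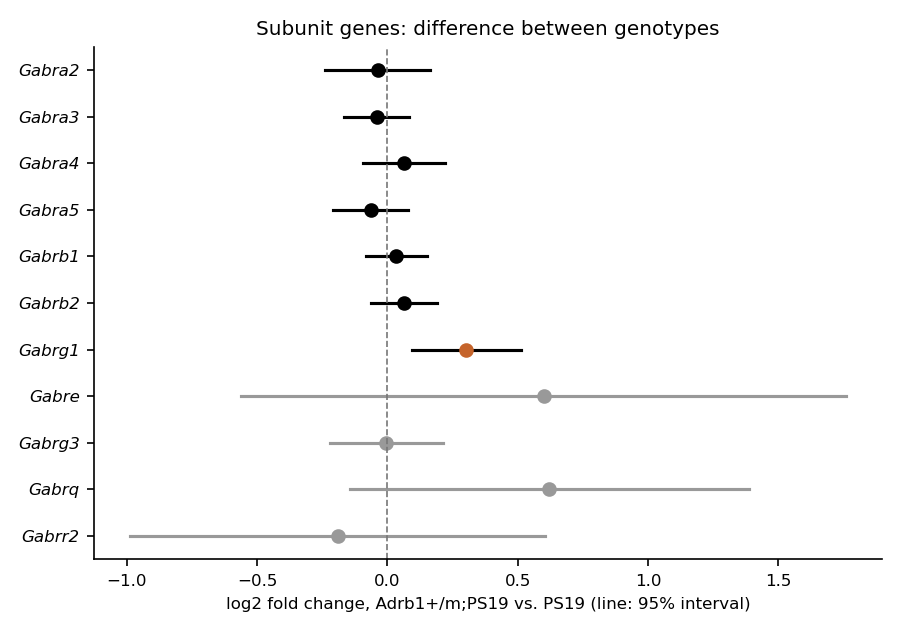
Log2 fold change in Adrb1+/m;PS19 vs. PS19 mice (horizontal axis) with its 95% interval for the 7 subunit genes (black lines) and the 4 other subunit genes tested and named here (grey lines). The interval of Gabrg1 (orange point), 0.09 to 0.51, lies above 0, and the intervals of the others include 0.

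Over all 8 mice the genes differed in how much they varied. The coefficient of variation of CPM was 15.8% for Gabrg1 and 11.1% for Gabra2, then 8.00% for Gabra4, 6.16% for Gabra5, 6.00% for Gabrb2, 5.48% for Gabra3 and 4.78% for Gabrb1. The median over 10438 genes with a mean of at least 10 CPM was 7.21%, and 94.5% of those genes varied less than Gabrg1 and 82.0% less than Gabra2. For Gabrg1 this spread includes the difference between the genotypes. Gabrb1, by contrast, varied less than most genes of the table, with 19.8% of them below it.

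The 7 genes did not move together over the mice. Of the 21 pairs, 10 had a positive Pearson's r of log2 CPM, the median r was -0.08, and the range was -0.73 to 0.76. Unadjusted exact permutation p-values were under 0.05 for 3 pairs, and none was after adjustment over the 21 pairs. The highest r was between Gabra4 and Gabrb2, at 0.76 (Spearman's rho 0.52, permutation p = 0.0365 for r and 0.197 for rho, adjusted p = 0.342 and 0.785). It was 0.67 without m677 and m671, the mice farthest from the median of Gabra4. Within the genotypes this r had opposite signs, at 0.96 in the PS19 mice and -0.81 in the Adrb1+/m;PS19 mice (n = 4 each). Gabra5 and Gabrb1 had an r of -0.67 (rho -0.60, permutation p = 0.0366 and 0.132, adjusted p = 0.342 and 0.785) and -0.77 without m658 and m661. Gabra5 and Gabrg1 had an r of -0.73 (rho -0.29, permutation p = 0.0488 and 0.501, adjusted p = 0.342 and 0.940), which became -0.40 without m658 and m661, so that this relation rested on those mice. Gabra4 and Gabrb1, whose spans overlap at their starts, had an r of -0.17 (rho -0.26, permutation p = 0.688 and 0.536, adjusted p = 0.875 and 0.940), or -0.63 without m677 and m671.

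**Figure D4:**
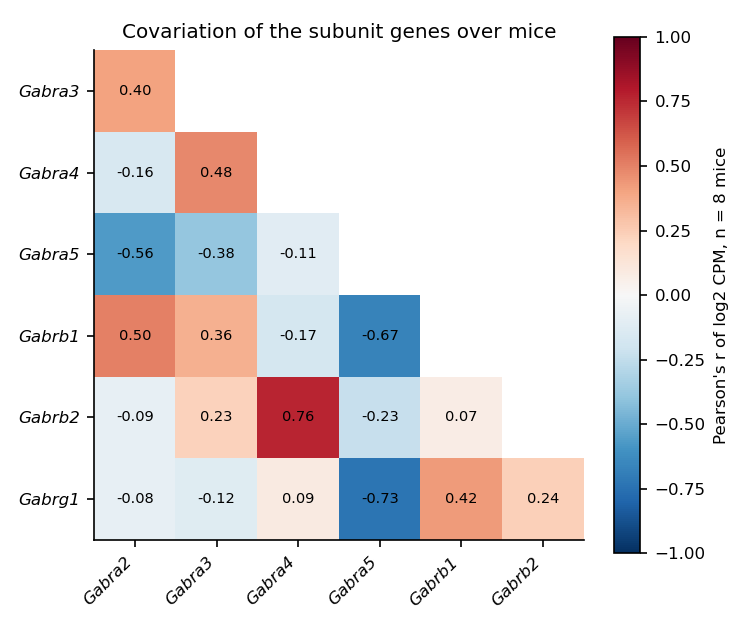
Pearson's r of log2 CPM over the 8 mice for each of the 21 pairs of subunit genes, printed in each square and drawn from blue (negative) to red (positive). Positive and negative squares are mixed, from -0.73 for Gabra5 with Gabrg1 to 0.76 for Gabra4 with Gabrb2.

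The members were also compared with the summed behaviour of marker genes of 11 cell types and regions, 77 relations in all, where a score is the mean of a list's log2 CPM after centring each gene. Unadjusted p-values were under 0.05 for 5 relations and adjusted ones for 0. The closest was between Gabrb1 and the 7 oligodendrocyte markers, with an r of -0.90 (rho -0.95, permutation p = 0.00402 and 0.00114, adjusted p = 0.309 and 0.0878). It was -0.87 without m665 and m658, and -0.93 on values minus the genotype mean. The 7 oligodendrocyte markers summed to 5031 to 6762 CPM in PS19 mice and 5269 to 6292 CPM in Adrb1+/m;PS19 mice, and 0 of them differed between the genotypes at the threshold used. Mice with more oligodendrocyte marker RNA thus had less Gabrb1 in both genotypes, although the relation did not pass adjustment. Gabrb1 also had an r of -0.82 with the hippocampal neuron markers (rho -0.67, permutation p = 0.0178 and 0.0831, adjusted p = 0.420 and 0.711), -0.77 without m665 and m658 and -0.81 on values minus the genotype mean.

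Gabra4 had an r of 0.76 with the striatal projection neuron markers (rho 0.86, permutation p = 0.0218 and 0.0107, adjusted p = 0.420 and 0.275), which was 0.55 without m677 and m671 and 0.73 on values minus the genotype mean. Gabra5 had an r of 0.71 with the cortical excitatory neuron markers (rho 0.64, permutation p = 0.0184 and 0.0962, adjusted p = 0.420 and 0.721). That value was 0.66 on values minus the genotype mean and 0.42 without m658 and m661, the mice farthest from the median of Gabra5.

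Over the 8 mice Gabrg1 had an r of 0.75 with the 8 markers of basal forebrain cholinergic neurons (rho 0.88, permutation p = 0.0303 and 0.00724, adjusted p = 0.466 and 0.275), which was 0.93 without m658 and m668. These markers moved with the genotype as well, since 8 of 8 were higher in Adrb1+/m;PS19 mice, against 8630 of all 17195 genes tested. Of the 8 markers, 7 were higher at an unadjusted p under 0.05, against 1.42% of all genes tested. The list was chosen with earlier results of these data known, so these counts are a description. The median log2 fold change of the 8 markers was 0.67. Their scores ran from -0.755 to -0.060 in PS19 mice and from 0.148 to 0.639 in Adrb1+/m;PS19 mice. None of the 8 was at 0 in all mice. On values minus the genotype mean the r with Gabrg1 was 0.39. Among the 4 Adrb1+/m;PS19 mice the order by score was the order by Gabrg1, but among the PS19 mice it was not, since m668 had the lowest Gabrg1 with a score of -0.080 and m677 the lowest score, -0.755, with the second-highest Gabrg1. The part of these markers' cells in the Gabrg1 difference was not tested. The 8 astrocyte markers, of which 0 passed the threshold in either direction, had a median log2 fold change of 0.04 and an r with Gabrg1 of 0.38 (rho 0.19, permutation p = 0.364 and 0.665, adjusted p = 0.727 and 0.914), which was 0.04 without m658 and m668 and 0.44 on values minus the genotype mean.

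**Figure D5:**
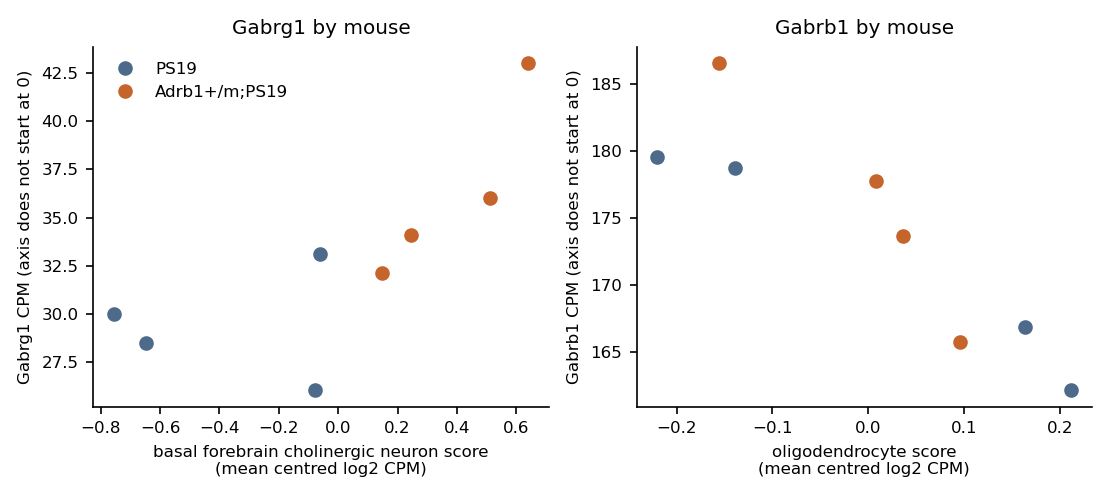
CPM of Gabrg1 against the score of basal forebrain cholinergic neuron markers (left) and CPM of Gabrb1 against the score of oligodendrocyte markers (right), with 1 point per mouse and vertical axes that do not start at 0. In the left panel the Adrb1+/m;PS19 mice have the higher scores, and in the right panel Gabrb1 falls with the score in both genotypes.

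Other listed subunit genes were few in counts or did not pass the threshold. Gabrg3, which encodes γ3, had 35.7 to 51.3 CPM and a log2 fold change of -0.01 (SE 0.10, edgeR unadjusted p = 0.960). Gabrq, which encodes the theta subunit, had 13 to 62 counts and a log2 fold change of 0.62 (SE 0.35, edgeR unadjusted p = 0.103). Gabre, the epsilon gene, had 2 to 19 counts and a log2 fold change of 0.60 (SE 0.54, edgeR unadjusted p = 0.286), and Gabrr2, a rho gene, had 7 to 28 counts and one of -0.19 (SE 0.37, edgeR unadjusted p = 0.614). Gabra6, the alpha gene of cerebellar granule cells, had 0 to 4 counts, and Gabrp, Gabrr1 and Gabrr3 had at most 1, 3 and 4 counts in any mouse, so none of these 4 was tested.

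Around the receptor, the genes that anchor it and those that make GABA gave different counts. Of 23 genes of the inhibitory postsynapse that were tested, 0 passed in either direction, against 2.80% of all genes tested. Their log2 fold changes had a median of -0.01 and lay between -0.11 and 0.09, where the median of all genes tested was 0.0005. Of 6 genes of the GABA-B receptor system and 8 genes of chloride transport, which sets the direction of the GABA-A current, 0 passed, with medians of -0.08 and -0.04. Over all 17195 genes tested, 8630 were higher in Adrb1+/m;PS19 mice and 8565 lower. At an unadjusted p under 0.05, 245 were higher (1.42%) and 236 lower. Of 8 genes of GABA synthesis, packaging, uptake and breakdown, 8 were higher in Adrb1+/m;PS19 mice and 4 passed at that threshold, with a median of 0.16. These were Abat, which breaks GABA down (0.21, SE 0.04), Gad2, which makes it (0.24, SE 0.07), Slc32a1, the vesicular GABA transporter (0.18, SE 0.07), and Slc6a11, a GABA uptake transporter (0.14, SE 0.06), each with an edgeR adjusted p of 0.9996. Gad2 and Slc32a1 are also among the 10 interneuron markers, of which 2 were higher and 1 lower at that threshold, with a median of 0.01. The 8 excitatory neuron markers were lower in 8 of 8 cases, with 3 past the threshold and a median of -0.14, and the 9 striatal markers were higher in 9 of 9, with 1 past it and a median of 0.34. The part of these tissue differences in the values of the GABA supply genes was not tested. All these lists were chosen with earlier results of these data known, so their counts are a description.

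The genes whose log2 CPM followed each member most closely over the 8 mice, among 10438 genes with a mean of at least 10 CPM, are given as a description, since the highest of so many values over 8 mice is high in any case. For Gabrb1 they were Map2, the microtubule protein of dendrites, with an r of 0.99, and Phactr2 with 0.97. For Gabrg1 they were Gosr2, a Golgi SNARE protein, and Mcm4, a subunit of the replicative helicase, each with 0.96. Gabra2 was followed by Ncoa3 (0.97) and Galnt10 (0.95), Gabra3 by Ppm1f (0.98) and B4galt6 (0.97), and Gabra4 by Plcb1 and Rnf111 (0.95 each). Gabra5 was followed by Rnaseh2a (0.96) and Lurap1l (0.95), and Gabrb2 by Gm45884 and Zbtb44 (0.98 each).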

How the data were processed

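RNA was isolated from the cortex of 4 PS19 and 4 Adrb1+/m;PS19 mice and sequenced as paired-end libraries. The authors deposited raw counts per gene, which they had made by aligning reads to GRCm38 (mm10); the submitters' processing notes name HISAT2 2.0.5, featureCounts 1.5.0-p3 and DESeq2 1.20.0. Genotypes were taken from the labels.

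After filterByExpr and TMM normalization, the genotypes were compared in R 4.3.3 by edgeR 4.0.16 with its quasi-likelihood test (glmQLFit, glmQLFTest), which was 2-sided and had no covariate. P-values were adjusted by Benjamini-Hochberg across the 17195 genes. A call was an unadjusted p under 0.05, the selection the study used. The SE is the size of the log2 fold change divided by the square root of F. Log2 CPM values had a prior count of 2. Correlations were tested over all pairings of the 8 mice. Nothing says how many dissections or batches the mice came from, so p-values measure the spread between these mice. The pipeline was tested on simulated data with larger changes than those of the members. That test therefore does not cover differences of the members' size.

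The alternatives were DESeq2 1.42.0 on all genes with at least 1 count, DESeq2's size factors in edgeR, and limma-voom (limma 3.58.1). Others were edgeR with no filter beyond 1 count, at least 10 counts in every mouse, each mouse left out, and another gene length for levels. The ratios of Gabrg1 to its neighbours were added after seeing the data. The members, the lists and the rule for named genes were chosen with earlier results of these data known. The rule named all members, the listed subunit genes kept by the filter, other listed GABA genes that passed, and the 2 genes most like each member. Promoter sequences came from RefSeq, which matched all 7 members, and exon overlaps from GENCODE M21. Another 4 listed subunit genes are not reported here.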

Additional observations from a re-analysis of the deposited data

How the results depend on the processing

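The 7 log2 fold changes kept their direction and their side of the threshold in 88 of 91 recomputations, 13 for each gene. The exceptions were all Gabra2, whose value ran from -0.11 to 0.025 with each mouse left out and was positive without m668 (0.012), m671 (0.025) or m661 (0.020). The cause was not tested. The log2 fold change of Gabrg1 ran from 0.21 to 0.36 with each mouse left out (edgeR unadjusted p from 0.00365 to 0.0333). Under the other alternatives it ran from 0.296 to 0.304, with unadjusted p from 0.000378 (edgeR with no filter beyond 1 count) to 0.00963. The number of members past the threshold was 1 in each setting. The number of all genes past it was 481. That number ran from 447 to 555 under DESeq2, its size factors in edgeR, limma-voom and the minimum of 10 counts. With each mouse left out it ran from 431 to 674. In edgeR with no filter beyond 1 count it was 1366, with more genes tested than in the main setting. DESeq2, which likewise had no stricter filter, gave 555. Why edgeR gave 1366 in that setting was not tested. No paired analysis was possible because each mouse has its own number in the labels and no litter is given. The lowest count of a member in any mouse was 377.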
